A study of Homo sapiens with 4 samples.

Results

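Described here are 10 markers of the epithelial-mesenchymal transition (EMT), listed by gene name. They comprised 3 epithelial genes (CDH1, EPCAM and ESRP1) and 7 mesenchymal genes (CDH2, VIM, FN1, ZEB1, ZEB2, SNAI2 and TWIST1). Of the 10 markers, 9 were read by Ensembl identifier among 28729 genes, and ESRP1 is not analysed here. RNA was sequenced from TU-177, an established human laryngeal squamous cell carcinoma (LSCC) line, in 2 libraries of cells with a negative control shRNA (NC) and 2 of cells with an shRNA against SKA3 (SKA3-KD). Both groups received lentivirus and were then selected with puromycin, so the NC cells also carry a vector. The study asked which mRNAs change when SKA3 is depleted. The labels do not say whether replicates 1 and 2 came from separate cultures or transductions, and p-values then measure only the spread between these libraries, which may be technical.

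EMT is the process by which epithelial cells give up their lateral junctions and gain migratory, fibroblast-like features. In its textbook form E-cadherin (CDH1) gives way to N-cadherin (CDH2), vimentin (VIM) and fibronectin (FN1) increase, and transcription factors of the SNAI, ZEB and TWIST families repress epithelial genes through E-box sequences. Carcinoma cells often hold epithelial and mesenchymal genes side by side, and the markers need not move as one.

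The authors deposited FPKM, fragments counted on a gene, divided by its length and by the size of the library, a scale on which genes of unequal length can be compared. The steps of these values put the libraries at between 9015056 and 11966130 reads, and 1 read on a gene of 1 kb was worth between 0.0836 and 0.111 FPKM. SKA3, the targeted subunit of the spindle and kinetochore-associated complex, was at 9.40 and 9.64 FPKM in NC and at 3.77 and 4.12 in SKA3-KD, and fell by 1.09 on the log2 scale (SE 0.07, limma adjusted p = 0.00806). The squamous label of the line was checked against 6 measured markers, of which 4 were under 1 FPKM in every library. The basal keratins KRT5 and KRT14 did not exceed 0.103 FPKM, and TP63, the squamous lineage factor, lay between 0.348 and 0.580 FPKM. SFN lay between 133 and 155 FPKM. KRT17, a keratin of basal and stressed epithelium, fell from 45.6 and 49.1 FPKM in NC to 29.4 and 35.7 in SKA3-KD (log2 -0.53, limma adjusted p = 0.0396), and the part of this in the results for the EMT markers was not tested. Keratins of simple epithelia were looked up after these values were seen. KRT8 lay between 430.0 and 452.6 FPKM. KRT18 was at 31.1 and 31.5 FPKM in NC and at 39.2 and 38.5 in SKA3-KD (log2 0.30, limma adjusted p = 0.0332). KRT7 was at 64.7 and 66.5 FPKM in NC and at 76.6 and 83.4 in SKA3-KD (log2 0.28, limma adjusted p = 0.0544). All 3 measured endothelial and all 3 measured leukocyte markers were under 1 FPKM in every library.

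In these cells SNAI2 fell and CDH2 rose with SKA3 knockdown, the former to 0.409 and the latter to 1.83 times its NC mean. FN1, ZEB1, ZEB2 and CDH1 had higher FPKM in both SKA3-KD libraries than in either NC library, and VIM and TWIST1 had lower FPKM in both. EPCAM overlapped between the groups. The 7 mesenchymal markers therefore did not share a direction, and N-cadherin mRNA exceeded E-cadherin mRNA in every library.

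The levels in NC, in FPKM, ran from VIM at 46.6 through SNAI2 at 8.72, CDH2 at 5.13, TWIST1 at 5.03, ZEB1 at 3.16, EPCAM at 2.90 and FN1 at 0.567 to CDH1 at 0.219 and ZEB2 at 0.206. Neighbours whose libraries overlapped were CDH2 and TWIST1, ZEB1 and EPCAM, and CDH1 and ZEB2. In SKA3-KD, VIM was again first at 40.2 FPKM and CDH2 second at 9.40, both apart from the next. ZEB1 at 3.92 FPKM, TWIST1 at 3.70 and SNAI2 at 3.57 followed, each overlapping with its neighbour, so that SNAI2 overlapped with TWIST1 and lay below ZEB1, whereas in NC it was above both. EPCAM at 2.81 FPKM and FN1 at 1.45 stood apart below them, and ZEB2 at 0.412 and CDH1 at 0.396 overlapped at the low end.

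**Figure D1:**
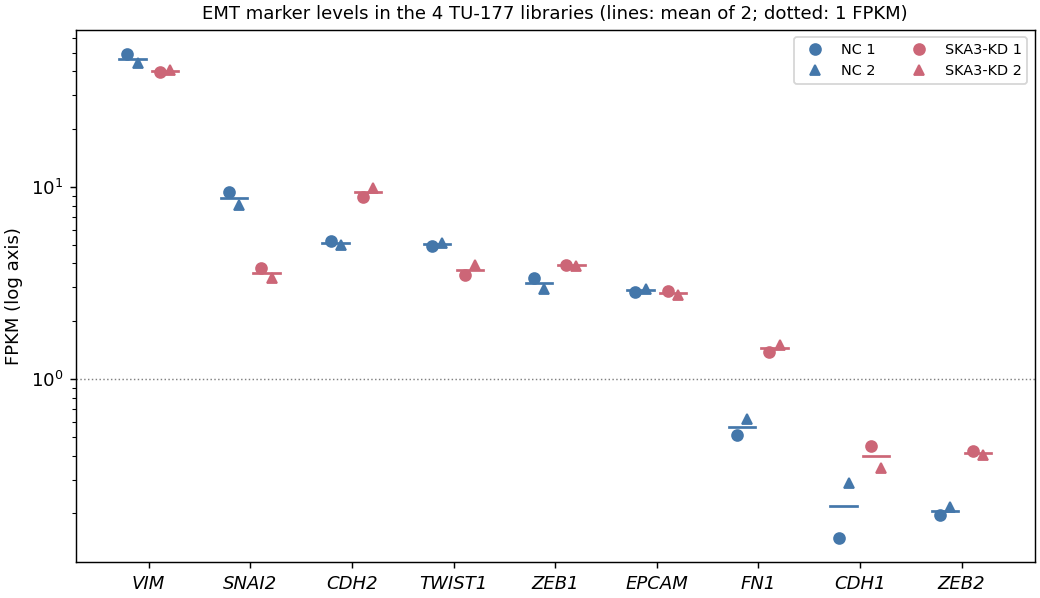
FPKM (log axis) of the 9 measured EMT markers in the 4 libraries, with circles for replicate 1, triangles for replicate 2 and short lines for the mean of each group of 2. SNAI2 lies lower and CDH2 and FN1 lie higher in SKA3-KD, EPCAM overlaps, and CDH1 and ZEB2 lie under 1 FPKM (dotted line) in every library.

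The markers were tested with limma on log2(FPKM + 1) together with all 12645 genes that had a mean of at least 1 FPKM, with Benjamini-Hochberg adjustment over all of them. Differences on this scale understate the change of genes with low FPKM. CDH1 and ZEB2 were under the filter, which left 7 markers, and FN1 passed it, with a mean of 1.01 FPKM, only through its SKA3-KD libraries. At an adjusted p of 0.05, 1 marker was lower, where 6.11% of all genes tested were called lower, and 1 was higher, where 6.16% were called higher and 12.3% were called in either direction. The other 5 tested markers did not pass. At an unadjusted p of 0.05, 3 markers were lower and 3 higher, beside 15.1% and 16.2% of all genes tested. The median log2 fold change was -0.04 over the 7 markers and 0.01 over all genes tested. The libraries of the groups did not overlap for 8 of 9 measured markers, beside 44.9% of all genes above 0. Of these, 3 were lower and 5 higher in SKA3-KD, beside 21.9% and 23.0% of all genes above 0. Among the 7 tested markers, 3 were lower and 3 higher without overlap, beside 29.2% and 32.3% of all genes tested, or 61.6% in either direction. With voom, which models the recovered reads, 2 markers were lower and 2 higher, beside 13.0% and 12.6% of all genes, or 25.7% in either direction. No exact two-sided permutation of 2 against 2 libraries reaches a p below 0.333, so the p-values here rest on the spread that limma shares between genes. In bulk RNA, fewer cells that express a gene and less RNA per cell cannot be told apart.

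SNAI2 (ENSG00000019549; chromosome 8, 48917604 to 48921740, minus strand, GENCODE 29 on GRCh38) encodes SLUG, a zinc finger repressor that binds E-boxes in epithelial promoters. NC 1 held 9.37 FPKM and NC 2 held 8.07, whereas SKA3-KD 1 held 3.79 and SKA3-KD 2 held 3.34. The groups lay far apart, with the lower NC library above the higher SKA3-KD library by more than the whole range within either group. These values correspond to 384 and 249 reads in NC and to 132 and 135 in SKA3-KD, a number that rests on a gene length of 3423 bases. SNAI2 fell by 1.09 on the log2 scale (SE 0.10, 95% interval of the change -1.35 to -0.83, limma adjusted p = 0.0112). By voom, SNAI2 fell by 1.32 on the log2 scale (SE 0.14, adjusted p = 1.02e-06). The call depended on single libraries. Its adjusted p was 0.0678 without NC 1, 0.0600 without NC 2, 0.0520 without SKA3-KD 1 and 0.0459 without SKA3-KD 2, with log2 changes between -1.19 and -0.99, and it was 0.0548 when no filter on low values was applied.

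TWIST1 (ENSG00000122691; chromosome 7, 19020991 to 19117672, minus strand) encodes a basic helix-loop-helix factor of mesoderm and neural crest that activates CDH2 in several carcinoma models. Its level was 4.93 and 5.13 FPKM in NC and 3.48 and 3.92 in SKA3-KD, so that both SKA3-KD libraries were below both NC libraries. The log2 difference was -0.36 (SE 0.09, 95% interval -0.58 to -0.14), and its limma adjusted p of 0.0594 did not pass the threshold. Over all alternatives the adjusted p of TWIST1 lay between 0.0548 and 0.222. With 72 to 120 reads in a library, the counts behind TWIST1 were among the lowest of the tested markers.

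ZEB1 (ENSG00000148516; chromosome 10, 31318495 to 31529814, plus strand) and ZEB2 (ENSG00000169554; chromosome 2, 144364364 to 144524583, minus strand) encode paired zinc finger and homeodomain repressors of CDH1. ZEB1 was at 3.38 and 2.94 FPKM in NC and at 3.95 and 3.88 in SKA3-KD. The gap between the groups was about as wide as that between the NC libraries, and the log2 difference of 0.24 (SE 0.09, 95% interval 0.00 to 0.48) had a limma adjusted p of 0.158. ZEB1-AS1, on the opposite strand, shares 366 exon bases with ZEB1 and held 32 to 42 reads in a library, beside 227 to 392 reads for ZEB1. Whether the counting used strand is not given in the sources used here, so reads of the shared bases could belong to either gene.

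ZEB2 was at a much lower level than ZEB1, at 0.196 and 0.217 FPKM in NC and 0.422 and 0.402 in SKA3-KD. The group means were 0.206 ± 0.0147 and 0.412 ± 0.0141 FPKM (SD, n = 2 each), and the groups did not overlap. Behind these values stood 42 and 35 NC reads (exact Poisson 95% intervals 30.3 to 56.8 and 24.4 to 48.7) and 77 and 85 in SKA3-KD (60.8 to 96.2 and 67.9 to 105), intervals that cover counting error only. These read numbers rest on an inferred gene length of 17907 bases, beside 25058 in GENCODE 29. The width of the intervals and the voom fit below rest on it too. ZEB2 entered a test only in alternatives, without a filter or with a filter on reads, and the latter was added after the data were seen. By voom over the 14001 genes that averaged 10 reads or more, of which 12.6% were called lower, 11.9% higher and 24.5% in either direction, its log2 fold change was 0.99 (SE 0.23, 95% interval 0.50 to 1.47, adjusted p = 0.00400). With limma on log2(FPKM + 1) over all 26504 genes above 0, of which 0.306% were called lower, 0.181% higher and 0.487% in either direction, the adjusted p of ZEB2 was 0.277. ZEB2-AS1, on the opposite strand, shares 1299 exon bases with it, and without strand the reads of both could not be told apart.

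CDH2 (ENSG00000170558; chromosome 18, 27950966 to 28177446, minus strand) encodes N-cadherin, the calcium-dependent adhesion molecule of neural and mesenchymal cells. NC 1 held 5.27 FPKM and NC 2 held 5.00, whereas SKA3-KD 1 held 8.91 and SKA3-KD 2 held 9.88. Both SKA3-KD libraries were well above both NC libraries, with 312 and 223 reads for the NC libraries and 449 and 577 for SKA3-KD. CDH2 rose by 0.76 on the log2 scale (SE 0.08, 95% interval 0.55 to 0.97, limma adjusted p = 0.0129), and by 0.86 with limma voom (adjusted p = 7.95e-06). The call of CDH2 needed all 4 libraries. The adjusted p was 0.0730 without NC 1, 0.0672 without NC 2, 0.0548 without SKA3-KD 1 and 0.0628 without SKA3-KD 2, with log2 changes between 0.69 and 0.83, and 0.0548 with no filter.

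FN1 (ENSG00000115414; chromosome 2, 215360440 to 215436172, minus strand) encodes fibronectin, a glycoprotein that cells bind through integrins. It was at 0.512 and 0.621 FPKM in NC and at 1.39 and 1.51 in SKA3-KD, and its ratio of means, 2.56, was the highest of the 9 markers. The groups did not overlap, and as FN1 is long these low values rested on 106 and 97 reads for NC and on 245 and 309 for SKA3-KD. The log2(FPKM + 1) difference of 0.65 (SE 0.16, 95% interval 0.22 to 1.07) had a limma adjusted p of 0.0674. The scale mattered for this gene. With limma voom, where no pseudocount of 1 FPKM is added, FN1 was higher by 1.37 on the log2 scale (SE 0.15, adjusted p = 1.98e-06), and without the mean-variance trend the adjusted p was 0.0367. FN1 was in these fits only because its SKA3-KD libraries lifted its mean past the filter of 1 FPKM, so these p-values are no independent support.

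VIM (ENSG00000026025; chromosome 10, 17228259 to 17237593, plus strand) encodes vimentin, the intermediate filament protein of mesenchymal cells, and was the most abundant of the markers. Its level was 49.0 and 44.2 FPKM in NC and 39.9 and 40.5 in SKA3-KD. The SKA3-KD libraries were both below the NC libraries, by less than the gap between the NC libraries themselves. The log2 difference was -0.21 (SE 0.07, 95% interval -0.39 to -0.03, limma adjusted p = 0.122), and with limma voom on 1979 to 2911 reads it was -0.23 (adjusted p = 0.0227). VIM-AS1, on the opposite strand, shares 641 exon bases with VIM and held at most 15 reads in a library.

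Fibroblast markers were read beside these mesenchymal genes. Their summed level over 6 measured genes was 15.4 and 15.8 FPKM in NC and 8.86 and 9.56 in SKA3-KD, and 3 of the 6 were under 1 FPKM in every library. Of the defining fibroblast collagens, COL1A2 did not exceed 0.00749 FPKM, COL3A1 was at 0.797 and 0.765 FPKM in NC and 0.476 and 0.361 in SKA3-KD, and COL1A1 was at 3.22 and 3.99 in NC and 2.71 and 2.66 in SKA3-KD. DCN, the proteoglycan decorin, made up most of the difference, at 8.40 and 8.36 FPKM in NC but 2.48 and 2.35 in SKA3-KD. Its log2 difference was -1.46 (limma adjusted p = 0.00650), larger in size than that of SNAI2. In the same libraries PDGFRB was at 2.88 and 2.46 FPKM in NC and at 3.19 and 4.13 in SKA3-KD. The part of these genes in the results for the mesenchymal markers was not tested.

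**Figure D2:**
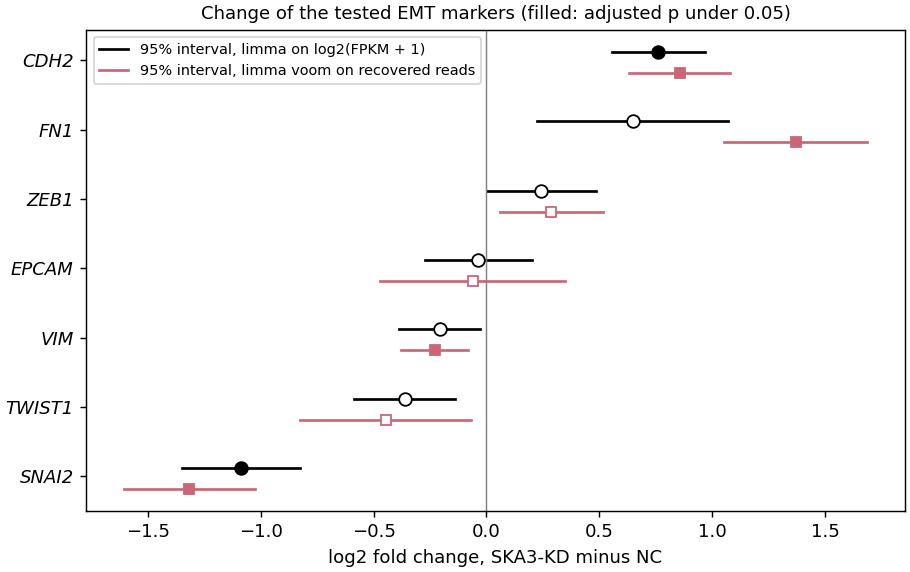
Log2 fold change (SKA3-KD minus NC) of the 7 tested EMT markers with 95% intervals, from limma on log2(FPKM + 1) in black and from limma voom on recovered reads in red, with filled symbols where the adjusted p was under 0.05. CDH2 and SNAI2 are filled in both and lie on opposite sides of 0, FN1 and VIM are filled only with voom, and EPCAM lies at -0.04.

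Among the epithelial markers, CDH1 (ENSG00000039068; chromosome 16, 68737225 to 68835548, plus strand) encodes E-cadherin, the adhesion molecule of the adherens junction. It was at 0.149 and 0.288 FPKM in NC and at 0.447 and 0.344 in SKA3-KD. Both SKA3-KD libraries were above both NC libraries, with a ratio of means of 1.81, yet the values rested on only 11 and 16 NC reads (exact Poisson 95% intervals 5.49 to 19.7 and 9.15 to 26.0) and 28 and 25 in SKA3-KD (18.6 to 40.5 and 16.2 to 36.9). Read intervals of NC and SKA3-KD libraries overlapped in part. With the filter on reads, the log2 fold change of CDH1 was 0.92 (SE 0.40, 95% interval 0.09 to 1.75), and its limma voom adjusted p of 0.102 did not pass the threshold. By mean FPKM CDH1 was at the 37.2 percentile of all genes above 0, beside 77.9 for CDH2.

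EPCAM (ENSG00000119888; chromosome 2, 47345158 to 47387601, plus strand) encodes an epithelial surface glycoprotein widely used to isolate carcinoma cells. It was at 2.85 and 2.95 FPKM in NC and at 2.89 and 2.73 in SKA3-KD. These groups overlapped, and the log2 difference of -0.04 (SE 0.09, 95% interval -0.27 to 0.20, limma adjusted p = 0.828) leaves room for a ratio of FPKM + 1 between 0.828 and 1.15. ESRP1, a splicing factor of epithelial cells, is not analysed here, and its paralog ESRP2, named after its values were seen, was at 13.8 ± 1.67 FPKM in NC and 14.4 ± 1.15 in SKA3-KD (SD, n = 2 each).

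Averaged per library as log2(FPKM + 1), the 2 measured epithelial markers were at 1.07 and 1.17 in NC and 1.25 and 1.16 in SKA3-KD. The 7 mesenchymal markers were at 2.46 and 2.41 in NC and 2.45 and 2.48 in SKA3-KD. Both averages overlapped between the groups.

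The start regions of CDH2, FN1 and ZEB1, mesenchymal markers that were higher in both SKA3-KD libraries, are shown. ZEB2 was higher too, but its region held none of the motifs named below and is not printed. No region was matched for CDH1. The family of SNAI2, which was lower, binds the E-box hexamer CAGGTG, which reads as CACCTG on the other strand. Whether SNAI2 has a part in these changes was not tested. For each printed gene the region with the most matches to these motifs was taken. Sequences are from RefSeq on GRCh38.p14, and those kept were matched by symbol to 5 of the markers in 12 start regions. Regions of SNAI2 were left out beforehand, so its own start was not searched for these motifs. Each sequence runs 5′ to 3′ on the gene's strand from 250 bases before to 50 after the start. Capitals mark the E-box hexamer, the cAMP response element TGACGTCA and the GC box, GGGCGG on 1 strand and CCGCCC on the other. The CDH2 region is chr18:28177081-28177380 (minus strand), the FN1 region chr2:215436019-215436318 (minus strand) and the ZEB1 region chr10:31318966-31319265 (plus strand).
CDH2: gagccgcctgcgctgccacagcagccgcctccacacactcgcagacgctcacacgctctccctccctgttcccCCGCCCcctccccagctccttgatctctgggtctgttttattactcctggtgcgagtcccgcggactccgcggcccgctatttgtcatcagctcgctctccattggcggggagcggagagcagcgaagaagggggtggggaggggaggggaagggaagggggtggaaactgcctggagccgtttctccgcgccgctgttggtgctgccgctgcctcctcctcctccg
FN1: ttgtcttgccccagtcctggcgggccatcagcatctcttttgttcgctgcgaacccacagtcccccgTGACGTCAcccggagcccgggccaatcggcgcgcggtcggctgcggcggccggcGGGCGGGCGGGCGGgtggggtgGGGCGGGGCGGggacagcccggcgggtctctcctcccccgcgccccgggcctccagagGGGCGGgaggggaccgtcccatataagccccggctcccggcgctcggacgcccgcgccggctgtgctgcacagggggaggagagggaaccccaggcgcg
ZEB1: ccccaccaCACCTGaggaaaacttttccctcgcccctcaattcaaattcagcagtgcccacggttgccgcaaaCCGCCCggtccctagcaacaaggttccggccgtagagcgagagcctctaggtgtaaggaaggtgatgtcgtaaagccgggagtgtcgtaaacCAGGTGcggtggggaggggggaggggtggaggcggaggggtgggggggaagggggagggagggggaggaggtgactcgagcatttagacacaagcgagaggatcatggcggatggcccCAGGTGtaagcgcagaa
The ZEB1 region held the E-box hexamer 3 times, with first bases at -242, -85 and 33 from the start, and 1 GC box. Over all 7 ZEB1 regions there were 4 hexamers, in 2 regions. None of the other 5 regions, 2 of CDH2 and 1 each of FN1, VIM and ZEB2, held it, and 20.6% of 35116 RefSeq start regions of the same length did. The FN1 region held the cAMP response element at -183, as 1.85% of all regions did, and 6 GC boxes, some of which overlap, between -129 and -49. The CDH2 region held 1 GC box at -177, a motif present in 45.0% of all regions. These matches describe letters in a window of 300 bases and say nothing of binding.

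CDH2 and CDH1 were next set within the cadherin family, a list of 18 cadherin genes with a numbered symbol that was drawn up after values were seen and is described without a test. On average, 3 of the 18 were above 1 FPKM, namely CDH2, CDH13 and CDH24. CDH13, the membrane-anchored T-cadherin, was at 5.88 and 5.68 FPKM in NC and at 9.47 and 9.92 in SKA3-KD, so that it lay close to CDH2 in both groups. CDH24 was at 5.82 and 8.76 FPKM in NC and at 6.11 and 5.57 in SKA3-KD, with overlap. CDH4 lay between 0.818 and 0.984 FPKM, and the remaining genes, P-cadherin (CDH3) and CDH1 among them, had means of at most 0.371 FPKM.

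**Figure D3:**
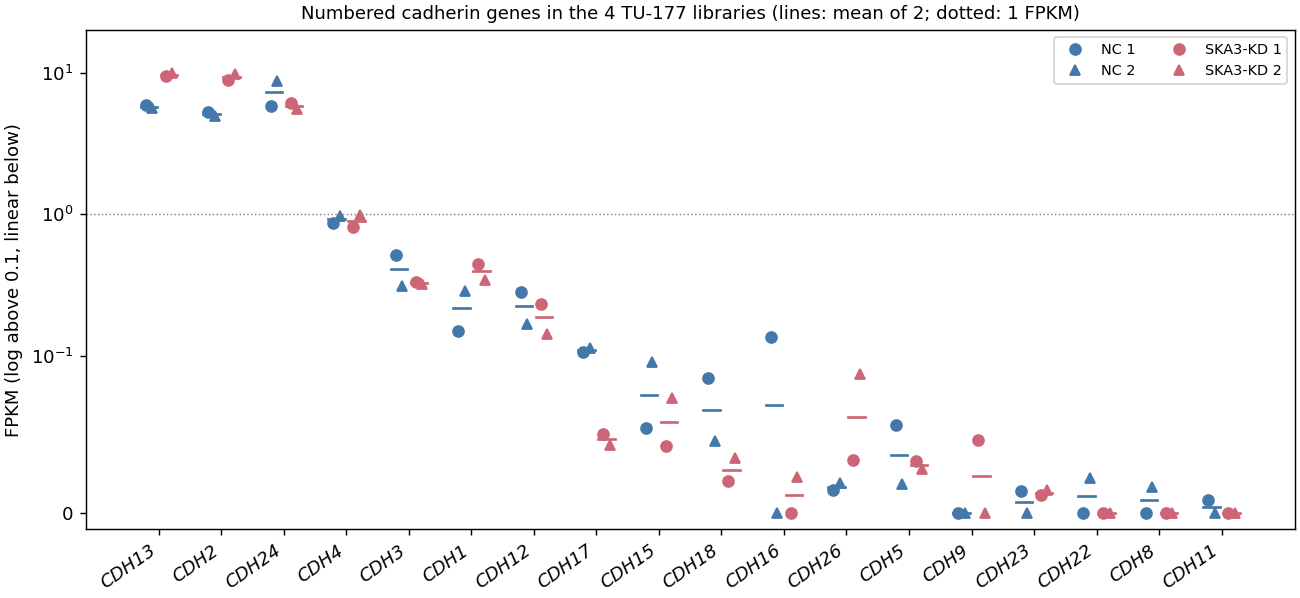
FPKM of 18 numbered cadherin genes in the 4 libraries (log axis above 0.1, linear below), with circles for replicate 1, triangles for replicate 2 and lines for group means. CDH13, CDH2 and CDH24 lie above 1 FPKM (dotted line), and CDH13 and CDH2 lie higher in both SKA3-KD libraries.

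Wider lists of epithelial and mesenchymal genes were read from the same fit. Their counts stand beside shares over all genes tested of 6.11% lower and 6.16% higher in limma, 15.1% and 16.2% at an unadjusted p of 0.05, and 13.0% and 12.6% with voom. Of 19 genes of epithelial junctions and polarity, 14 were tested, 2 fell and 2 rose (limma adjusted p under 0.05), with a median log2 fold change of 0.00. NECTIN4, a nectin of epithelial junctions, fell from 1.80 ± 0.0841 to 0.636 ± 0.0111 FPKM (log2 -0.77, adjusted p = 0.0373), and passed the filter only through its NC libraries. The tight junction claudin CLDN7 fell from 15.7 ± 0.736 to 10.2 ± 0.129 FPKM (log2 -0.58, adjusted p = 0.0150). By contrast CLDN1, another claudin, rose from 3.22 ± 0.623 to 5.88 ± 0.594 FPKM (log2 0.71, adjusted p = 0.0356), and the junctional receptor CXADR rose from 10.6 ± 0.354 to 14.3 ± 0.443 FPKM (log2 0.40, adjusted p = 0.0282). These 2 claudins thus went opposite ways. CLDN4, the other claudin of the list, named after its values were seen, rose from 6.98 ± 1.16 to 10.3 ± 0.424 FPKM. Its log2 difference of 0.51 did not pass in limma (adjusted p = 0.0525) and passed with voom (adjusted p = 0.000842).

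A list of catenins, other cadherin linkers and the nectin NECTIN2 had the highest median of the 7 lists, 0.27, with 10 of 10 tested. Of these 3 rose and 0 fell in limma, 6 and 0 at an unadjusted p of 0.05, and 5 and 0 with voom. NECTIN2 rose from 11.1 and 11.6 FPKM in NC to 20.8 and 19.1 in SKA3-KD (log2 0.76, adjusted p = 0.0113), PKP4, an armadillo protein related to p120 catenin, from 6.52 ± 0.438 to 9.78 ± 0.314 (log2 0.52, adjusted p = 0.0224), and CTNNAL1, related to alpha-catenin, from 29.9 ± 2.29 to 40.7 ± 0.590 (log2 0.44, adjusted p = 0.0282). The catenins CTNNA1, CTNNB1 (beta-catenin), CTNND1 and JUP, named after their values were seen, had log2 differences of 0.18, -0.05, 0.00 and 0.36. Their limma adjusted p-values were 0.0951, 0.569, 0.972 and 0.0508. The nectins NECTIN1 and NECTIN4 stood in the junction list, at log2 -0.12 and -0.77. The lists were written with earlier results of these data known, and whether their medians differ was not tested.

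Of 25 genes of mesenchymal structure and matrix, 24 were measured and 14 tested. In limma 2 fell and 0 rose, with 2 and 2 at an unadjusted p of 0.05, 2 and 2 with voom, and a median of 0.01. S100A4, a calcium-binding protein also known as fibroblast-specific protein, fell from 556 ± 43.8 to 362 ± 11.7 FPKM (log2 -0.62, adjusted p = 0.0152), and the secreted glycoprotein FSTL1 fell from 35.6 ± 1.83 to 27.2 ± 0.649 FPKM (log2 -0.37, adjusted p = 0.0308). Both moved in the opposite direction to CDH2.

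Among 13 other EMT transcription factors, 6 were tested. In limma 0 fell and 1 rose, with 0 and 2 at an unadjusted p of 0.05, 1 and 2 with voom, and a median of -0.13. TCF3, which encodes the E-box binding E proteins E12 and E47, rose from 23.9 ± 1.91 to 34.0 ± 1.34 FPKM (log2 0.49, adjusted p = 0.0257). SNAI1, the paralog of SNAI2, named after its values were seen, was at 3.92 and 4.54 FPKM in NC and 4.43 and 3.72 in SKA3-KD, with overlap (log2 -0.04, adjusted p = 0.829). Whether SNAI1 and SNAI2 differ in their change was not tested.

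Of 18 epithelial regulators, 15 were measured but only 5 tested. In limma 1 fell and 0 rose, with 2 and 1 at an unadjusted p of 0.05, 3 and 0 with voom, and a median of -0.19. ELF3, an epithelial ETS factor, fell from 9.44 ± 0.574 to 6.25 ± 0.218 FPKM (log2 -0.53, adjusted p = 0.0220). Of 9 corepressors of the ZEB and SNAIL factors, all tested, 1 fell and 0 rose in limma, 2 and 1 at an unadjusted p of 0.05, and 2 and 1 with voom, with a median of 0.01. CTBP2, a corepressor that ZEB factors recruit, fell from 14.7 ± 0.608 to 10.5 ± 1.03 FPKM (log2 -0.45, adjusted p = 0.0384). Of 6 splicing factors linked to EMT, 0 fell and 0 rose in limma, with 1 and 1 at an unadjusted p of 0.05 and 1 and 1 with voom, and the median was 0.01.

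Among the 12 genes called in these lists, only NECTIN2 without SKA3-KD 2 (adjusted p = 0.0419) kept its call when a library was left out, and the other adjusted p-values of these genes without 1 library ran up to 0.146.

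**Figure D4:**
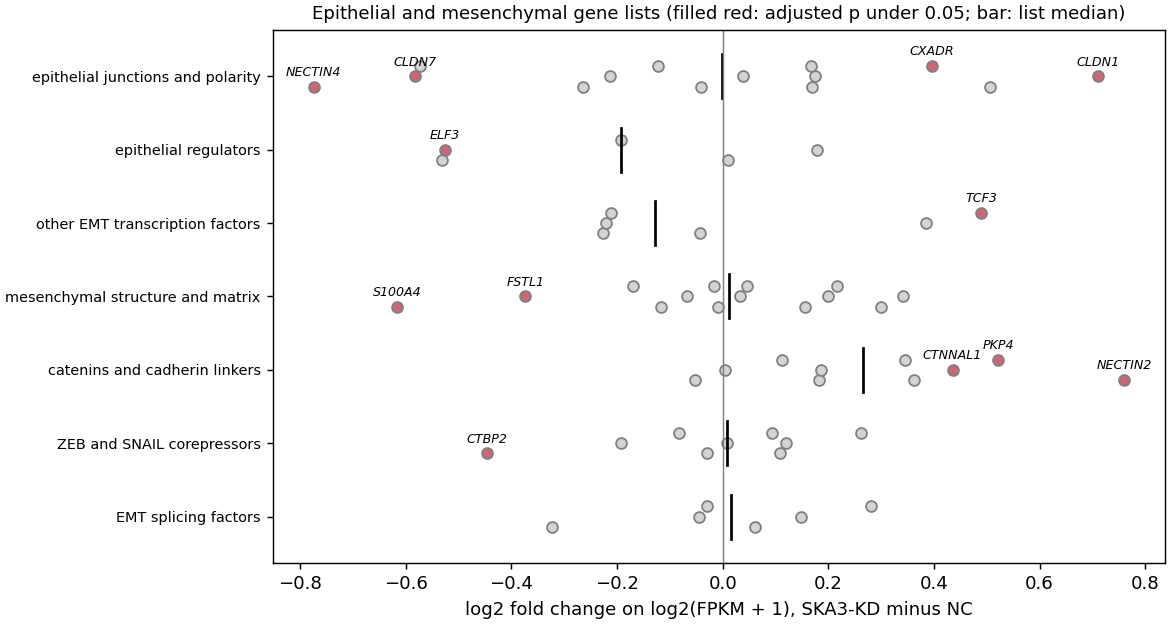
Log2 fold change on log2(FPKM + 1), SKA3-KD minus NC, of the tested genes of 7 lists, 1 point a gene, with red and a name where the limma adjusted p was under 0.05 and a bar at each list's median. Named genes lie on both sides of 0 among the junction genes, to the right among the catenins and linkers, and to the left among the mesenchymal structure genes.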

How the data were processed

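Total RNA of puromycin-resistant TU-177 cells was sequenced by Illumina protocols. Values for 4 libraries were deposited in FPKM, which the authors normalised for gene length and library size. The submitters' processing notes name HISAT2, Bowtie2 2.2.8, StringTie 1.3.1, Cuffdiff 2.1.1 and hg19, without role or order. All value columns belong to these libraries. Symbols, positions and exon lengths came from GENCODE 29 (GRCh38) by Ensembl identifier for 27199 of 28729 genes, and this annotation is of another build than hg19.

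SKA3-KD was compared with NC by limma 3.58.1 in R 4.3.3 (lmFit, trended eBayes) on log2(FPKM + 1) in all genes that averaged 1 FPKM or more, with Benjamini-Hochberg adjustment and a threshold of 0.05. Depth was recovered from the FPKM steps. Whole reads, within a tolerance of 0.01, were found for 99.9% of the 26504 genes above 0, with the GENCODE 29 length for 68.1% and otherwise from the proportions between libraries, where the length is inferred and the read number is less certain. They summed to between 106.4% and 108.1% of the library sizes. Limma voom was run on these reads as an alternative.

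Other settings were no filter, a minimum of 5 FPKM on average, a pseudocount of 0.1, scaling by median of ratios or quantiles, eBayes without trend or robust, the replicate number as a block, and each library left out. A mean of at least 10 reads was added after the data were seen. On simulated data of 12463 genes, of which 193 were changed, limma recovered 81 of 96 genes changed 2-fold and 19 of 97 changed 1.5-fold, with 9 false calls in all, and voom recovered 172 of 193 with 4 false calls. The simulated counts had the same small dispersion for every gene, and genes with few reads were left unchanged. Fewer genes were changed than limma called in the real libraries. The recovery and false calls therefore need not hold for these libraries. Named were all markers, SKA3, and list members past the threshold, beside genes stated to be named after their values were seen. The result of 1 gene of the lists is not reported here. The markers and lists were chosen with earlier results of these data known. The paper's methods name no test for these libraries and also describe siRNA and, for stable knockdown in TU-177, Cas9 with sgRNAs, whereas the labels give shRNA. Python 3.11.15 was used for the other steps.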

Additional observations from a re-analysis of the deposited data

How the results depend on the processing

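SKA3, the measured markers and the genes called in the lists kept their direction under every alternative run. Some list genes that were not called and lay near 0 did not, such as CTNND1 and HDAC2. Against 772 genes lower and 779 higher, limma called 81 and 48 with no filter, 381 and 312 without the mean-variance trend, 1648 and 1597 with voom on recovered reads, and 1765 and 1666 with voom at a mean of at least 10 reads. With 1 library left out the counts ran from 0 to 135 lower and from 0 to 46 higher. Of the EMT markers, 1 was lower and 1 higher, against 0 and 0 with no filter, 1 and 2 without the trend, 2 and 2 with voom, and 2 and 3 with voom at a mean of at least 10 reads. FN1, which passed the filter on FPKM only through its SKA3-KD libraries, was the higher marker added without the trend and with voom. Leaving out 1 library gave 0 to 1 lower and 0 to 0 higher. The log2 change of SKA3 ran from -1.14 to -1.04 with 1 library left out, and its adjusted p was 0.0660 without NC 1 and 0.0600 without NC 2, past the threshold in neither. The cause of these changes was not tested, beyond that the filter sets how many genes share the adjustment and that a left-out library leaves 1 in its group, assumed to vary as the other group does.

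The replicate number as a block gave 965 genes lower and 1002 higher, 1 EMT marker lower and 1 higher, and a log2 change of -1.09 for SKA3. It changed no call of a marker or of SKA3, but CLDN1 (adjusted p = 0.0575) and NECTIN4 (adjusted p = 0.0512) lost theirs. The labels do not say what a number shares, and the deviations of same-numbered libraries correlated at 0.0973 over 12645 genes, so the numbers were not taken to pair the samples. Scaling moved the median log2 fold change by at most 0.01 in size. With 2 libraries a group, limma on log2(FPKM + 1) mostly missed changes of 1.5-fold on simulated data (19 of 97 recovered). Voom recovered 172 of all 193 changed genes there. With either, a p above the threshold does not show that a marker did not change.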
